A study of Mus musculus with 11 samples.

Results

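The 36 genes described here make or handle sterols and fatty acids, and they were taken as a given list from the 24411 genes of the expression table. They fall into 5 steps, with 7 genes of the mevalonate pathway, 13 of the sterol step, 6 of fatty acid synthesis, 5 regulators and 5 genes of sterol efflux and the liver X receptors (LXR). The sterol step also counts the sterol carrier Stard4 and the membrane protein Tmem97. All 36 passed the filter on low values. Total RNA came from spontaneous tumours of homozygous Th-MYCN mice, in which the tyrosine hydroxylase promoter drives a MYCN transgene in the sympathetic lineage and gives neuroblastoma. Every mouse in every group carried that transgene. When tumours were about 5 mm across, mice received 1 dose of vehicle (intraperitoneal, 3 libraries), CBL0137 at 40 mg/kg (intravenous, 3 libraries), panobinostat at 5 mg/kg (intraperitoneal, 2 libraries, replicates 1 and 3) or both drugs (3 libraries), and tumours were taken 16 h later. CBL0137 is a curaxin, a DNA-binding small molecule that traps the histone chaperone FACT on chromatin, and panobinostat inhibits histone deacetylases. Panobinostat replicate 2 was not analysed here. The age of the mice is not given in the sources used here, and no vehicle group received an intravenous injection.

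Cells build cholesterol from acetyl-CoA through mevalonate, farnesyl diphosphate, squalene and lanosterol. When sterol in the endoplasmic reticulum is low, SCAP carries the SREBP transcription factors (from Srebf1 and Srebf2) to the Golgi for cleavage, and they switch on the synthesis genes. When sterol is high, the INSIG proteins hold SCAP back, and oxidised sterols activate LXR, which switches on exporters such as ABCA1. Growing tumour cells need both sterols and fatty acids for new membranes.

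Promoter stretches of genes from both arms, synthesis and efflux, are given before the values, since these arms moved in opposite directions. RefSeq promoters (GRCm38.p6, 250 bases before to 50 after a start) were found for 29 of the 36 genes, and 3 motifs were searched on both strands with no overlap between matches of different motifs. The LXR-type repeat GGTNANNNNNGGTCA was in 3 of these 29 genes (10.3%), against 0.226% of all 27025 genes with a promoter. Those were Abca1, Srebf1 and Fasn. Among the 4 efflux genes with a promoter, 1 held it (Abca1), and Fasn passed in no comparison against vehicle. Capitals mark the match, which reads as the reverse complement along each gene.
Abca1: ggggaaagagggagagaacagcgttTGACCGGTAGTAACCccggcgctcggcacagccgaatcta
Srebf1: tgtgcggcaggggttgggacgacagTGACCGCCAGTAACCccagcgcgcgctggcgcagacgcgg
Fasn: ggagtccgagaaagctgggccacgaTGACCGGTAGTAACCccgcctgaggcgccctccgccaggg
The Abca1 stretch lies on the minus strand at chr4:53159923-53159987, between annotated genes, at -92 to -28 from the start. The Srebf1 stretch (minus strand, chr11:60210614-60210678, -207 to -143) belongs to an internal start and lies in an intron of Srebf1. The Fasn stretch (minus strand, chr11:120824733-120824797, -250 to -186) lies between annotated genes.

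The CCAAT box (letters CCAAT), bound by NF-Y, was in 22 of the 29 genes (75.9%), against 41.1% of all genes. Among mevalonate and sterol genes with a promoter it was in 15 of 16. These included Mvk, Tm7sf2 and Ebp, which passed in no main comparison against vehicle. The box was also in Mylip, Srebf1 and Insig2, which rose after the combination. A sterol element spelled TCACNCCAC was found in Hmgcs1 alone (3.45% of the 29, against 1.44% of all genes). The stretches of 4 genes that fell after the combination show the CCAAT box in capitals, which reads ATTGG where it is on the other strand, and the Hmgcs1 stretch shows the sterol element.
Hmgcs1: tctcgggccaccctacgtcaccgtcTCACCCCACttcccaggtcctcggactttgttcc
Tmem97: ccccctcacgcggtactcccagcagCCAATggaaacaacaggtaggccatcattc
Hsd17b7: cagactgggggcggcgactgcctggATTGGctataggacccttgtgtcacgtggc
Lss: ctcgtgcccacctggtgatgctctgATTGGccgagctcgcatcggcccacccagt
Srebf2: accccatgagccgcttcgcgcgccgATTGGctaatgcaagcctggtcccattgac
They lie between annotated genes at chr13:119690189-119690247 (plus strand), chr11:78550853-78550907 (minus), chr1:169969341-169969395 (minus), chr10:76531518-76531572 (plus) and chr15:82147109-82147163 (plus). These matches are a description of letters, and binding was not measured.

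Values are TPM, transcript abundances scaled for length and to a fixed library total, so sequencing depth is unknown. Between 12856 and 14747 genes reached 1 TPM in a library. Markers of the sympathetic lineage were present in every tumour (summed TPM of 8 genes between 512 and 1393). Several libraries also carried RNA of other tissues. Combination replicate 2 held 7339 summed TPM of 10 adrenal cortex markers, where the other 10 libraries held 4.91 to 49.9 TPM, and panobinostat replicate 3 held 9942 TPM of 8 skeletal muscle markers and 1123 TPM of 5 liver markers. Combination replicate 1 held 764 TPM and CBL0137 replicate 2 held 622 TPM of the muscle markers, where the libraries not named for muscle held 9.45 to 70.9 TPM. Vehicle replicate 2 held 455 TPM of 5 kidney markers, and vehicle replicate 1 held 380 TPM of the liver markers. Marker lists of macrophages, fibroblasts, fat cells and Schwann cells held members that rose with treatment, and their values are given below beside genes that also rose. In whole tumours, a smaller share of a cell type and less RNA per cell cannot be told apart.

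The genes of cholesterol synthesis fell after panobinostat and after the combination, and the efflux genes rose. Against vehicle, with limma and Benjamini-Hochberg adjustment over 15497 genes, panobinostat lowered 18 of the 36 genes (50%) and raised 5 (13.9%), where 16.9% of all tested genes fell and 25.5% rose. The combination lowered 19 (52.8%) and raised 8 (22.2%), where 30.1% of all genes fell and 35.9% rose. After CBL0137 alone 1 gene fell (2.78%) and 2 rose (5.56%), where 1.13% of all genes fell and 4.99% rose. The median log2 change of the 36 genes was -0.38 after CBL0137, -0.49 after panobinostat and -0.63 after the combination, and that of all tested genes was -0.01, 0.10 and 0.08. Quantile normalization shifted the median of all genes to -0.18 after panobinostat and -0.26 after the combination. It turned the split of all genes to 15.8% higher and 25.6% lower after panobinostat and 26.9% higher and 43.1% lower after the combination. Calls among the 36 changed in that fit too. After the combination Mvk, Tm7sf2, Nsdhl and Scap also passed as lower, and Insig2 no longer passed as higher. After panobinostat Srebf1 also passed as higher. These 3 comparisons share the same vehicle libraries.

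**Figure D1:**
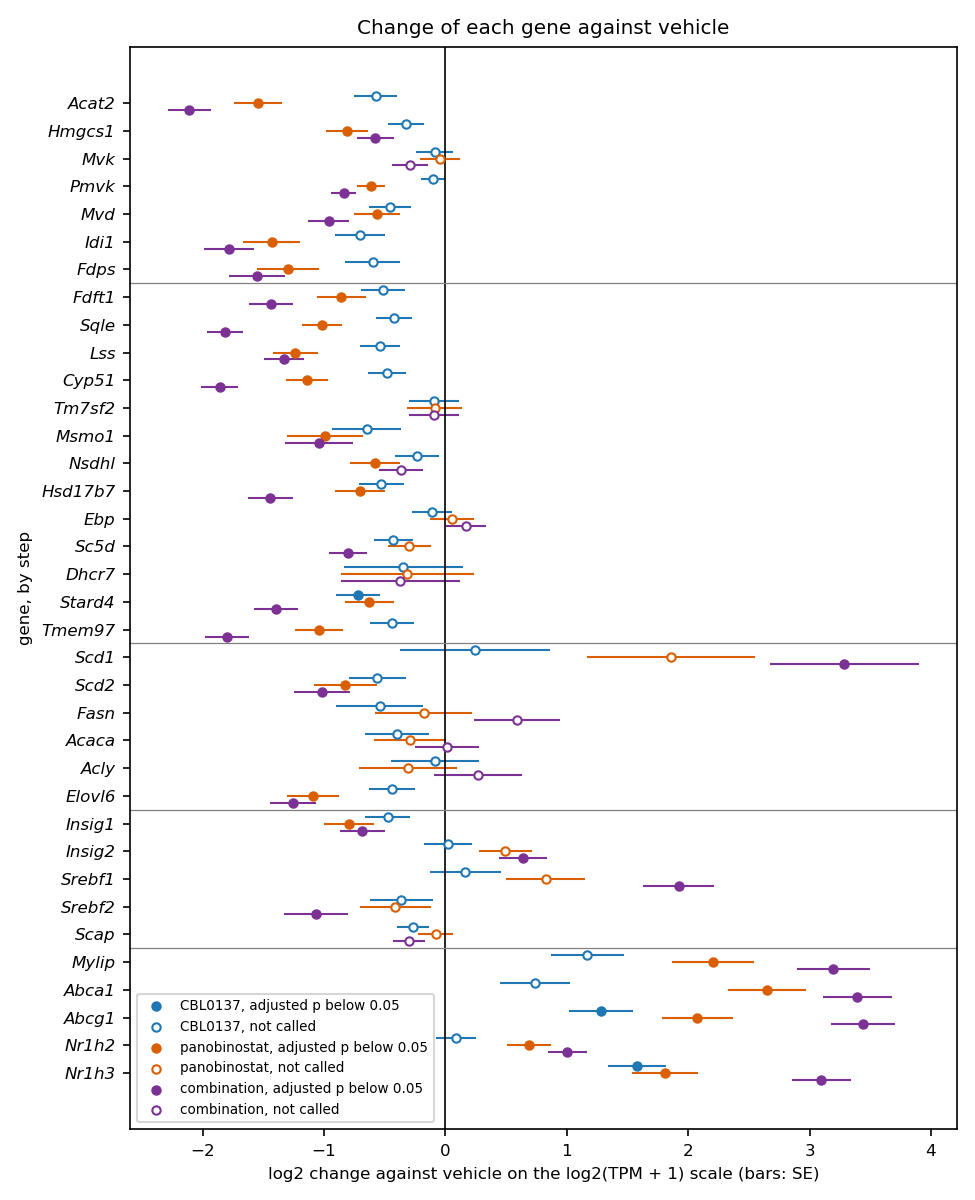
Log2 change against vehicle (log2(TPM + 1) scale, horizontal axis) of each of the 36 genes after CBL0137, panobinostat and the combination, ordered by step from mevalonate (top) to efflux (bottom). Bars are standard errors and filled points passed an adjusted p of 0.05. The 20 mevalonate and sterol genes lie mostly left of 0 and the 5 efflux genes right of it.

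Of the 20 mevalonate and sterol genes, 15 fell after panobinostat and 15 after the combination (16.9% and 30.1% of all tested genes). None rose, where 25.5% and 35.9% of all tested genes did. Their median log2 change was -0.76 after panobinostat and -1.19 after the combination. After CBL0137 all 20 had a log2 change below 0 (median -0.45), but 1 of them passed the test, where 48.6% of all tested genes were above 0. Summed over the 7 mevalonate genes, vehicle tumours held 525 to 617 TPM, CBL0137 tumours 358 to 472, panobinostat tumours 254 to 262 and combination tumours 207 to 274. Over the 13 sterol genes the sums were 416 to 473, 279 to 368, 244 to 250 and 164 to 236 TPM in the same order. Vehicle tumours held the highest sums of both steps, without overlap with any treated group.

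In the mevalonate pathway the change was greatest for Acat2 (chr17:12942890-12960747), the cytosolic thiolase that makes acetoacetyl-CoA. It stood at 153, 131 and 139 TPM in the 3 vehicle tumours, 94.1, 119 and 74.3 after CBL0137, 54.7 and 41.3 after panobinostat, and 33.8, 34.8 and 27.5 after the combination. The 4 groups did not overlap. Its log2 change was -1.55 ± 0.20 after panobinostat (SE, adjusted p 0.00064) and -2.11 ± 0.18 after the combination (adjusted p 1.065e-05), a ratio of vehicle to combination means of 4.41. After CBL0137 the change of -0.57 ± 0.18 did not pass (adjusted p 0.08182).

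Idi1 (chr13:8885501-8892451), which isomerises isopentenyl diphosphate, was at 66.6, 58.6 and 51.2 TPM in vehicle, 34.9, 38.0 and 33.9 after CBL0137, 18.4 and 24.0 after panobinostat, and 13.7, 23.8 and 13.3 after the combination. Vehicle stood apart from all treated tumours, and the panobinostat and combination ranges overlapped. Its log2 change was -1.43 ± 0.23 after panobinostat (adjusted p 0.0014) and -1.78 ± 0.21 after the combination (adjusted p 4.873e-05). Fdps (chr3:89093588-89101959), the farnesyl diphosphate synthase, went from 171, 148 and 141 TPM to 96.5, 121 and 86.9 after CBL0137, 63.1 and 60.3 after panobinostat and 36.6, 76.9 and 48.5 after the combination. Combination replicate 2, the library with adrenal cortex RNA, was the highest of its group for both Idi1 and Fdps. The combination lowered Fdps by 1.55 ± 0.23 on the log2 scale (adjusted p 0.000209), and by 1.83 without that library.

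Of the other 4 mevalonate genes, Hmgcs1, Pmvk and Mvd fell in both comparisons and Mvk did not pass in either. Hmgcs1, the cytosolic HMG-CoA synthase, changed by -0.81 after panobinostat and -0.58 after the combination. Pmvk and Mvd, the kinase and decarboxylase late in the pathway, changed by -0.61 and -0.56 after panobinostat and by -0.84 and -0.96 after the combination. The panobinostat call of Mvd (adjusted p 0.03813) was lost without any 1 vehicle library, either panobinostat library or combination replicate 1 (adjusted p 0.05058 to 0.1957). Mvk, mevalonate kinase, ranged from 9.09 to 15.6 TPM over all 11 libraries, with log2 changes of -0.05 (adjusted p 0.8469) after panobinostat and -0.29 (adjusted p 0.1114) after the combination. Mvk did pass, lower, after the combination under quantile normalization (-0.67) and TMM factors (-0.43).

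In the sterol step the largest falls after the combination were in Cyp51, Sqle and Tmem97, and after panobinostat in Lss. Cyp51 (chr5:4081145-4104746), lanosterol demethylase, was at 48.3, 41.5 and 38.8 TPM in vehicle, 28.8, 36.7 and 26.4 after CBL0137, 18.02 and 19.79 after panobinostat, and 9.23, 11.7 and 12.4 after the combination. The 4 groups did not overlap, and its log2 change was -1.14 ± 0.17 after panobinostat (adjusted p 0.001105) and -1.86 ± 0.16 after the combination (adjusted p 1.065e-05).

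Sqle (chr15:59315077-59331192) makes squalene epoxide, an oxygen-dependent step. Its level was 88.0, 80.3 and 81.9 TPM in vehicle, 65.4, 67.5 and 53.8 after CBL0137, 42.4 and 39.0 after panobinostat and 21.9, 19.0 and 28.9 after the combination, again with no overlap between the 4 groups. The log2 change was -1.02 ± 0.17 after panobinostat (adjusted p 0.001415) and -1.82 ± 0.15 after the combination (adjusted p 9.744e-06), with a ratio of vehicle to combination means of 3.59. Tmem97 (chr11:78541817-78550777), a sterol-regulated membrane protein of the endoplasmic reticulum, showed the same separation of all 4 groups. It was at 85.6, 107 and 93.9 TPM in vehicle, 75.7, 78.6 and 57.7 after CBL0137, 46.1 and 45.5 after panobinostat and 29.8, 20.0 and 31.8 after the combination. Its log2 change was -1.04 ± 0.20 (adjusted p 0.003079) after panobinostat and -1.80 ± 0.18 (adjusted p 2.225e-05) after the combination.

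Lss (chr10:76531588-76557138), which closes the lanosterol rings, was at 20.1, 14.3 and 14.9 TPM in vehicle, 10.4, 12.4 and 9.89 after CBL0137, 6.93 and 5.77 after panobinostat and 5.65, 6.57 and 5.40 after the combination. The panobinostat and combination tumours overlapped, and both lay below the rest. Its change was -1.24 ± 0.18 on the log2 scale after panobinostat (adjusted p 0.001022) and -1.33 ± 0.16 after the combination (adjusted p 7.067e-05). Stard4, which carries cholesterol between membranes, was the 1 gene of the mevalonate and sterol steps that passed after CBL0137. It was at 24.0, 18.5 and 17.5 TPM in vehicle, 11.01, 14.66 and 9.79 after CBL0137, 12.9 and 12.0 after panobinostat, and 5.83, 7.25 and 7.80 after the combination. The CBL0137 change was -0.72 ± 0.18 (adjusted p 0.04668), and it did not pass when single libraries were left out (adjusted p 0.148 without vehicle replicate 1 and 0.1604 without CBL0137 replicate 3, for example). After panobinostat it was -0.63 ± 0.20 (adjusted p 0.03045), a call lost without vehicle replicate 1 or either panobinostat library (0.07848 to 0.1355), and after the combination -1.39 ± 0.18 (adjusted p 9.325e-05).

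The remaining sterol genes were less uniform. Fdft1, squalene synthase, changed by -0.86 after panobinostat and -1.44 after the combination, Hsd17b7, a sterol ketoreductase, by -0.70 and -1.44, and Msmo1, the sterol methyl oxidase, by -0.99 and -1.04, and all 3 passed in both. The panobinostat call of Msmo1 was lost without any 1 of the vehicle or panobinostat libraries (adjusted p 0.058 to 0.1375), and that of Hsd17b7 without vehicle replicate 1 or either panobinostat library (0.06546 to 0.09782). Nsdhl, which acts with Msmo1 in removing methyl groups, changed by -0.58 after panobinostat (adjusted p 0.04308), a call lost with no filter (0.05654), with only the groups compared (0.05374) and without most single libraries. After the combination it changed by -0.37 (adjusted p 0.1), and it passed there with TMM factors (-0.51, 0.01579) and quantile normalization (-0.69, 0.006675). Sc5d, the late desaturase, changed by -0.30 after panobinostat (adjusted p 0.2077) and fell after the combination (-0.80, adjusted p 0.001356), and neither gene passed in the direct comparison of the combination with panobinostat. Tm7sf2 and Ebp, a reductase and an isomerase of late sterols, passed in no comparison against vehicle, with log2 changes between -0.11 and 0.17, although Tm7sf2 passed after the combination under quantile normalization (-0.65).

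For Dhcr7, the last reductase of the pathway, 1 library decided the call. It stood at 21.8 to 27.7 TPM in vehicle, 17.8 to 19.9 after CBL0137, 20.1 and 17.9 after panobinostat, and 9.40, 53.1 and 11.6 after the combination. Combination replicate 2, with the adrenal cortex markers, held the highest value of all 11 libraries and the other 2 combination tumours the lowest. The log2 change was -0.37 ± 0.49 (adjusted p 0.5281) over 3 combination tumours and -1.12 (adjusted p 0.0002223) without replicate 2. Without it Nsdhl also passed (-0.51, adjusted p 0.03546). The part that adrenal cortex RNA has in these values was not tested.

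**Figure D2:**
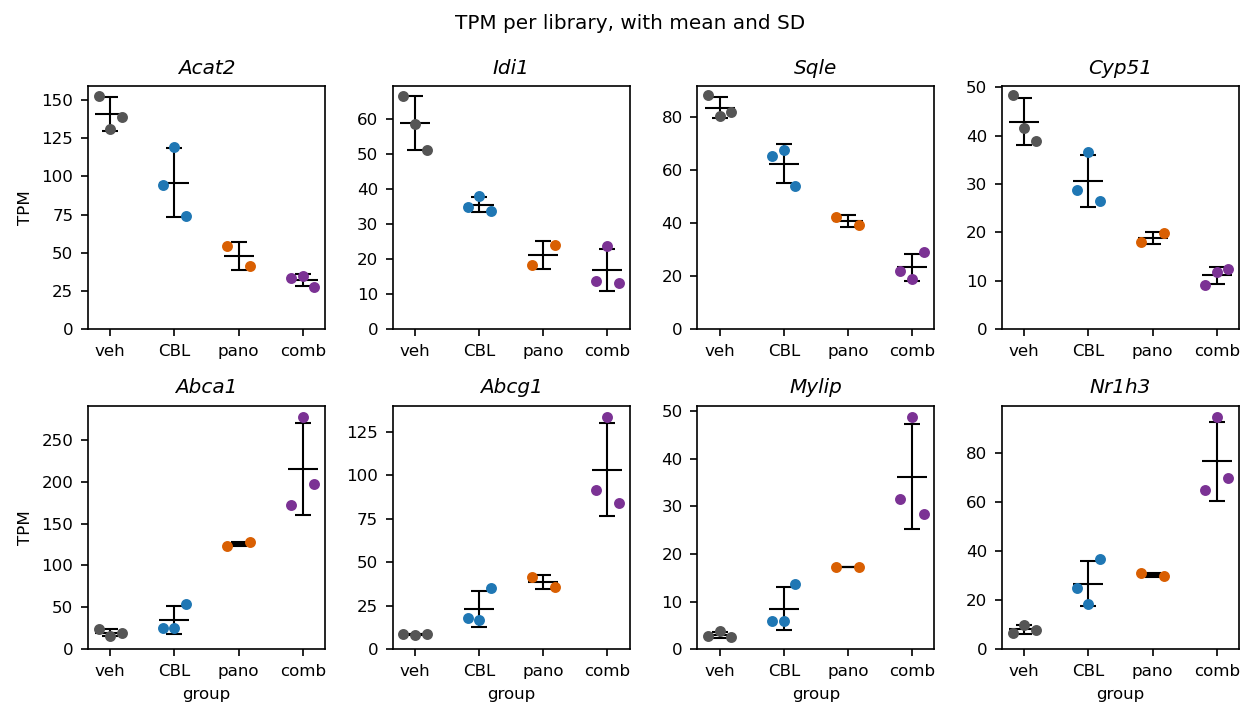
TPM in each library (vertical axes, linear from 0) of 4 synthesis genes in the upper row and 4 efflux genes in the lower row, for vehicle (veh), CBL0137 (CBL), panobinostat (pano) and the combination (comb). Points are libraries, and bars give the mean and SD. Acat2, Sqle and Cyp51 separate all 4 groups downward, while Abca1 and Abcg1 separate panobinostat and combination tumours upward.

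The fatty acid genes did not move as 1 group. Of 6, Scd2 and Elovl6 fell after panobinostat and after the combination, and Scd1 rose after the combination. Of all tested genes, 16.9% fell after panobinostat, and 30.1% fell and 35.9% rose after the combination. Their median log2 change was -0.30 after panobinostat and 0.14 after the combination, and the latter was -0.26 without combination replicate 2 and -0.01 with TMM factors. Scd1 (chr19:44394455-44407879) encodes a stearoyl-CoA desaturase abundant in fat and skin. It was at 213, 56.4 and 44.9 TPM in vehicle, 64.1, 82.8 and 170 after CBL0137, 377 and 237 after panobinostat, and 953, 1328 and 413 after the combination. All panobinostat and combination tumours lay above all vehicle and CBL0137 tumours, although vehicle replicate 1 was more than any CBL0137 tumour. The combination raised it by 3.29 ± 0.62 on the log2 scale (adjusted p 0.0009345), and the panobinostat change of 1.86 ± 0.69 did not pass (adjusted p 0.05241). It passed with a pseudocount of 0.1, a filter of 5 TPM or TMM factors (0.0454 to 0.04978), and without vehicle replicate 1, CBL0137 replicate 3, combination replicate 2 or combination replicate 3 (0.01002 to 0.04836).

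Scd2 (chr19:44293674-44306864), the neighbouring desaturase that dominates in brain, went the other way. Scd2 was at 256 to 352 TPM in vehicle, 157 to 231 after CBL0137, 166 and 161 after panobinostat, and 118, 211 and 117 after the combination. It changed by -0.82 ± 0.26 (adjusted p 0.02823) after panobinostat and by -1.02 ± 0.23 (adjusted p 0.003117) after the combination, and the panobinostat call did not pass without vehicle replicate 1, vehicle replicate 3 or either panobinostat library (adjusted p between 0.05264 and 0.1162). Elovl6, an elongase of long-chain fatty acids, fell by 1.09 after panobinostat and 1.25 after the combination. Fasn, Acaca and Acly, which make palmitate and its precursors, did not pass against vehicle, with log2 changes from -0.54 to 0.59. Acly was at 126.8, 391.1 and 123.1 TPM after the combination against 143 to 166 in vehicle, so its high value belonged to the library with adrenal cortex markers.

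Fat cell marker sums and Scd1 were both higher in panobinostat and combination tumours than in vehicle. After CBL0137 the markers had a median log2 change of 1.52, with 0 of 8 passing, where 4.99% of all tested genes rose. Scd1 changed by 0.24 on that scale and did not pass. Its mean was 105.6 TPM against 104.8 in vehicle, where replicate 1 held 213 TPM and the others 56.4 and 44.9. Within vehicle, CBL0137 and panobinostat, the libraries had the same order by marker sum and by Scd1. The summed TPM of 8 such markers was 216 to 563 in vehicle, 499 to 1553 after CBL0137, 1639 and 3400 after panobinostat and 2270 to 8931 after the combination. None of the 8 was at 0 in any library. All 8 rose after the combination and 4 after panobinostat (35.9% and 25.5% of all tested genes). Within the combination the library with the lowest sum, replicate 3, also had the lowest Scd1. The highest sum was in replicate 1 and the highest Scd1 in replicate 2. The part of fat cell RNA in the Scd1 values was not tested. How reads shared by the similar Scd1 and Scd2 transcripts were divided is not given in the sources used here.

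**Figure D3:**
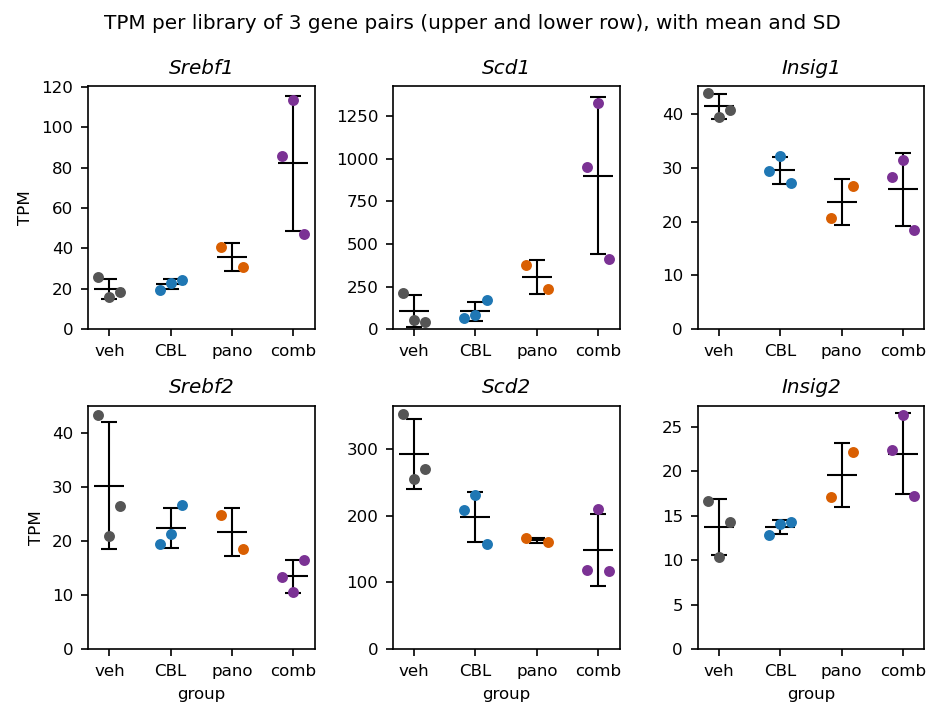
TPM in each library (vertical axes, linear from 0) of Srebf1, Scd1 and Insig1 (upper row) and Srebf2, Scd2 and Insig2 (lower row), by group. Points are libraries and bars give the mean and SD. After the combination Srebf1 and Scd1 lay above and Srebf2 and Scd2 below every vehicle tumour, and Insig1 lay below and Insig2 above.

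Of the 5 regulators, 2 rose and 2 fell after the combination, near the shares of all tested genes (35.9% and 30.1%). After panobinostat 1 fell and 0 rose (16.9% and 25.5%). Srebf1 and Srebf2, and Insig1 and Insig2, changed in opposite directions after the combination. Srebf1 (chr11:60199089-60222581), whose product favours fatty acid genes, was at 25.7, 16.0 and 18.4 TPM in vehicle, 19.5, 22.9 and 24.3 after CBL0137, 40.8 and 31.0 after panobinostat, and 85.8, 113 and 47.1 after the combination. Panobinostat and combination tumours did not overlap with vehicle. The rise after the combination was 1.92 ± 0.29 on the log2 scale (adjusted p 0.0002305), and the panobinostat change of 0.83 ± 0.32 did not pass (adjusted p 0.06357). It passed under quantile normalization (0.03777), with only the groups compared (0.02777), and without vehicle replicate 1, combination replicate 2 or combination replicate 3 (0.0138 to 0.04723). Srebf2 (chr15:82147181-82205379), whose product favours cholesterol genes, was at 43.4, 20.9 and 26.5 TPM in vehicle, 19.5, 21.3 and 26.6 after CBL0137, 24.9 and 18.6 after panobinostat, and 13.4, 10.5 and 16.6 after the combination. Every combination tumour was below every other tumour, with a log2 change of -1.07 ± 0.26 (adjusted p 0.004525). Its changes after CBL0137 (-0.36, adjusted p 0.4257) and panobinostat (-0.41, adjusted p 0.281) did not pass.

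Insig1 (chr5:28071363-28078662), itself an SREBP target, was at 43.9, 39.5 and 40.7 TPM in vehicle, 29.3, 32.1 and 27.1 after CBL0137, 20.6 and 26.6 after panobinostat, and 28.3, 31.4 and 18.3 after the combination. All treated tumours lay below vehicle. It fell after panobinostat (-0.79 ± 0.20, adjusted p 0.01163) and after the combination (-0.68 ± 0.18, adjusted p 0.007613), and the panobinostat call did not pass without panobinostat replicate 1 (adjusted p 0.08802).

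Insig2 (chr1:121304353-121332589) was at 16.6, 10.4 and 14.2 TPM in vehicle, 12.84, 14.04 and 14.26 after CBL0137, 17.1 and 22.1 after panobinostat, and 22.4, 26.3 and 17.2 after the combination. The combination raised it by 0.64 ± 0.20 (adjusted p 0.0151), which did not pass without vehicle replicate 2 (adjusted p 0.05963), without combination replicate 2 (adjusted p 0.05787) or under quantile normalization (adjusted p 0.1049). Scap (chr9:110333288-110384950), the escort of the SREBP proteins, was at 34.1, 28.4 and 31.3 TPM in vehicle, 25.8, 23.8 and 28.0 after CBL0137, 33.3 and 26.0 after panobinostat and 22.3, 27.3 and 26.1 after the combination. The combination tumours were all below the vehicle tumours, but the change of -0.30 ± 0.13 did not pass (adjusted p 0.06611). It did under quantile normalization (-0.38) and TMM factors (-0.45).

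All 5 efflux and LXR genes rose after panobinostat and after the combination (25.5% and 35.9% of all tested genes). Their median log2 change was 2.08 and 3.20. Of these 5, 2 rose after CBL0137 (4.99% of all tested genes). Abca1 (chr4:53030787-53159895), which loads cholesterol onto apolipoprotein A-I, was at 23.6, 15.7 and 19.0 TPM in vehicle, 25.5, 25.2 and 54.0 after CBL0137, 124 and 128 after panobinostat and 173, 278 and 197 after the combination. The 4 groups did not overlap. Its log2 change was 2.65 ± 0.32 after panobinostat (adjusted p 0.0005623) and 3.40 ± 0.29 after the combination (adjusted p 1.089e-05), an 11.1-fold ratio of means, and 0.74 ± 0.29 after CBL0137, which did not pass (adjusted p 0.1499).

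Abcg1 (chr17:31057675-31117988), which exports cholesterol to mature lipoproteins, was at 8.57, 8.07 and 8.56 TPM in vehicle, 17.8, 16.5 and 35.3 after CBL0137, 41.5 and 35.9 after panobinostat, and 91.9, 134 and 84.2 after the combination. Again the 4 groups did not overlap. It rose after CBL0137 (1.28 ± 0.26, adjusted p 0.02108), panobinostat (2.08 ± 0.29, adjusted p 0.0008591) and the combination (3.44 ± 0.26, adjusted p 7.716e-06), and the CBL0137 call did not pass without any 1 of the vehicle libraries (adjusted p 0.06631 to 0.0764).

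Mylip (chr13:45389742-45412022) encodes the ubiquitin ligase that removes the low-density lipoprotein receptor. It was at 2.65, 3.72 and 2.60 TPM in vehicle, 5.86, 6.0 and 13.7 after CBL0137, 17.2 and 17.3 after panobinostat, and 31.6, 48.8 and 28.5 after the combination. Its log2 change was 2.21 ± 0.34 after panobinostat (adjusted p 0.001117) and 3.20 ± 0.30 after the combination (adjusted p 1.728e-05). After CBL0137 it was 1.17 ± 0.30 with an adjusted p of 0.0502, which passed with a pseudocount of 0.1, a filter of 5 TPM, TMM factors, or without CBL0137 replicate 1 or combination replicate 2.

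Nr1h3 (chr2:91184061-91202834) encodes LXR alpha, the receptor found in macrophages, liver and fat. It was at 6.53, 9.99 and 7.58 TPM in vehicle, 24.8, 18.5 and 36.6 after CBL0137, 30.9 and 29.7 after panobinostat, and 64.8, 94.6 and 69.7 after the combination. All treated tumours exceeded vehicle, CBL0137 and panobinostat overlapped, and the combination lay above both. It rose by 1.58 ± 0.24 after CBL0137 (adjusted p 0.005382), the 1 CBL0137 call kept when any library was left out, by 1.81 ± 0.27 after panobinostat (adjusted p 0.00102) and by 3.10 ± 0.24 after the combination (adjusted p 8.307e-06). Nr1h2 (chr7:44549616-44553951), the widely expressed LXR beta, was at 20.4, 20.3 and 19.0 TPM in vehicle, 17.9, 19.2 and 27.7 after CBL0137, 35.5 and 30.2 after panobinostat, and 40.2, 46.5 and 36.6 after the combination. It rose less, by 0.69 ± 0.18 after panobinostat (adjusted p 0.01244, and 0.08202 without panobinostat replicate 1) and 1.01 ± 0.16 after the combination (adjusted p 0.000359).

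Macrophage and fibroblast markers rose with the efflux genes after panobinostat and the combination. The summed TPM of 11 macrophage markers was 301 to 347 in vehicle, 762 to 1514 after CBL0137, 2105 and 2759 after panobinostat and 3637 to 5293 after the combination, with none at 0 in any library. Of these 11, 8 rose after CBL0137 and 11 after panobinostat and after the combination (4.99%, 25.5% and 35.9% of all tested genes). CBL0137 replicate 3 had the highest marker sum of its group and the highest Abca1, Abcg1, Mylip, Nr1h3 and Nr1h2, and combination replicate 2 likewise in its group. In the panobinostat group, replicate 3 had the higher marker sum. Abca1 (127.5 against 123.8 TPM) and Mylip (17.31 against 17.19 TPM) were also higher there than in replicate 1, while Abcg1, Nr1h3 and Nr1h2 were lower. Schwann cell and glial markers (7 genes, 6 of them tested) summed to 25.6 to 38.9 TPM in vehicle and 23.2 to 36.8 after CBL0137. They summed to 65.7 and 93.2 after panobinostat and 43.0 to 82.0 after the combination. After panobinostat 5 of the 6 rose (25.5% of all tested genes), and after the combination 4 rose and 1 fell (35.9% and 30.1%). Fibroblast markers (8 genes) summed to 228 to 404 TPM in vehicle and 502 to 1320 after CBL0137, with replicate 3 again the highest. They summed to 2832 and 3174 after panobinostat and 3392 to 5059 after the combination. All 8 rose after panobinostat and after the combination (25.5% and 35.9% of all tested genes, median log2 changes 3.16 and 3.53). After CBL0137, 0 of the 8 passed (4.99% of all tested genes rose), although their log2 changes ran from 0.80 to 1.25 (median 1.05). Of the 8 sympathetic lineage genes, 6 were lower and 2 higher after the combination (30.1% and 35.9% of all tested genes, median log2 change -1.27). After panobinostat 1 was lower (16.9%, median -0.43). After CBL0137, 2 were higher and none lower (4.99% and 1.13%, median -0.08). Their sums were 894 to 1095 TPM in vehicle, 1263 to 1393 after CBL0137, 746 and 964 after panobinostat and 512 to 832 after the combination. The part of these shifts in the rise of the efflux genes and in the fall of the synthesis genes was not tested.

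**Figure D4:**
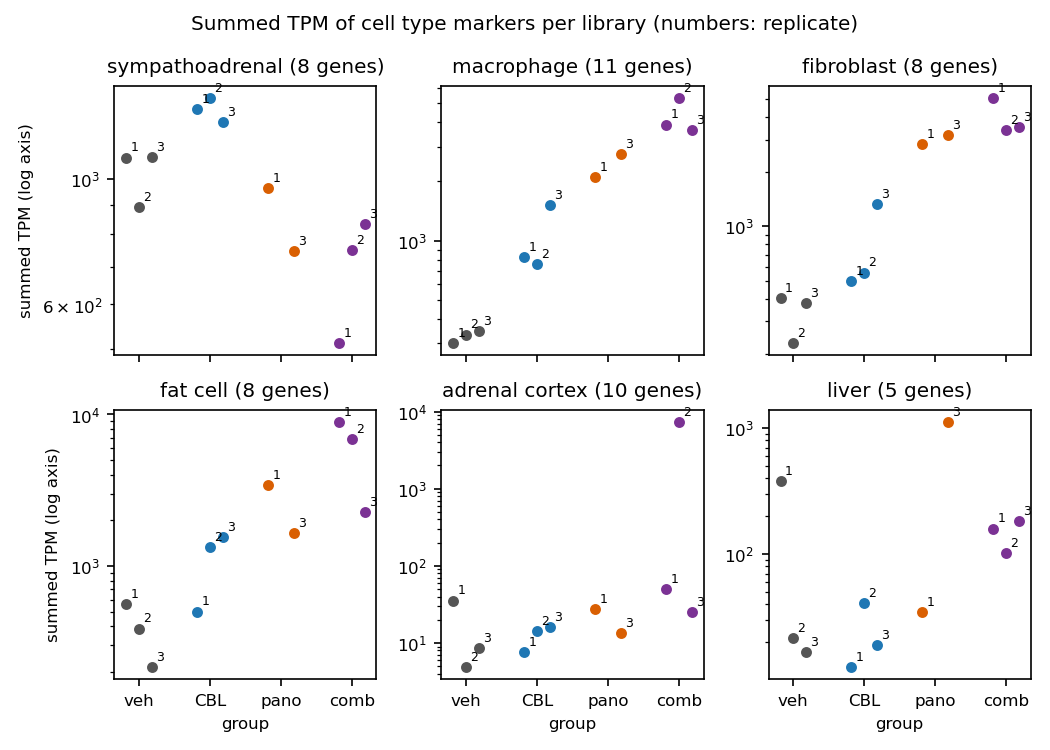
Summed TPM (logarithmic vertical axes) of marker genes for 6 cell types or tissues in each library, by group, with the replicate number beside each point. Macrophage, fibroblast and fat cell sums were higher in panobinostat and combination tumours than in vehicle, and the adrenal cortex sum of 7339 TPM in combination replicate 2 stood apart from the other libraries.

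Adding panobinostat to CBL0137 lowered synthesis genes and raised efflux genes further. Against CBL0137 alone, the combination lowered 14 of the 36 genes (38.9%) and raised 9 (25%), where 23.7% of all genes fell and 33.2% rose. Those counts of the 36 are from the main fit, and under quantile normalization 34.6% of all genes fell and 25.1% rose. The falls included 12 of the 20 mevalonate and sterol genes, led by Acat2 (-1.54 ± 0.18, adjusted p 0.0002662) and Sqle (-1.40 ± 0.15, adjusted p 0.0002619), and the rises included all 5 efflux genes, Scd1 (3.05) and Srebf1 (1.76). Fasn passed here (1.13 ± 0.36, adjusted p 0.02033), a call lost without at least 1 library.

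Adding CBL0137 to panobinostat changed fewer. Against panobinostat alone, 5 genes were lower (13.9%) and 2 higher (5.56%) in the combination, where 4.3% of all genes were lower and 6.24% higher (11.8% and 9.69% under quantile normalization). In the main fit the lower genes were Sqle (-0.80), Tmem97 (-0.76), Stard4 (-0.77), Hsd17b7 (-0.74) and Cyp51 (-0.72), all of the sterol step. The higher genes were Abcg1 (1.37) and Nr1h3 (1.29), and the adjusted p of these 7 lay between 0.02154 and 0.04995. Each of these 7 calls was lost when at least 1 library was left out, and none of the 5 lower genes passed when only these groups were fitted.

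Between the single drugs, 5 genes were higher (13.9%) and 2 lower (5.56%) after CBL0137 than after panobinostat, where 6.81% of all genes were higher and 12.1% lower (8.64% and 7.58% under quantile normalization, 10.0% and 11.1% with TMM factors). In the main fit Acat2 (0.97), Lss (0.69), Cyp51 (0.66), Sqle (0.59) and Pmvk (0.51) were higher, and Abca1 (-1.91) and Nr1h2 (-0.60) were lower. Each of these calls too was lost without at least 1 library.

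For the interaction, no gene passed. It is the combination's change minus the sum of the single-drug changes, and it was called for 0 of the 36 genes and 0% of all tested genes by limma, and for 0 of the 36 under every alternative. At an unadjusted p of 0.05 it passed for 2 of the 36 genes and for 10.5% of all tested genes, so the 2 do not stand out. They were Fasn (1.31 ± 0.53, p 0.03399, adjusted p 0.4401) and Hmgcs1 (0.56 ± 0.23, p 0.03484, adjusted p 0.4451). With 2 panobinostat libraries its standard errors were wide.

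**Figure D5:**
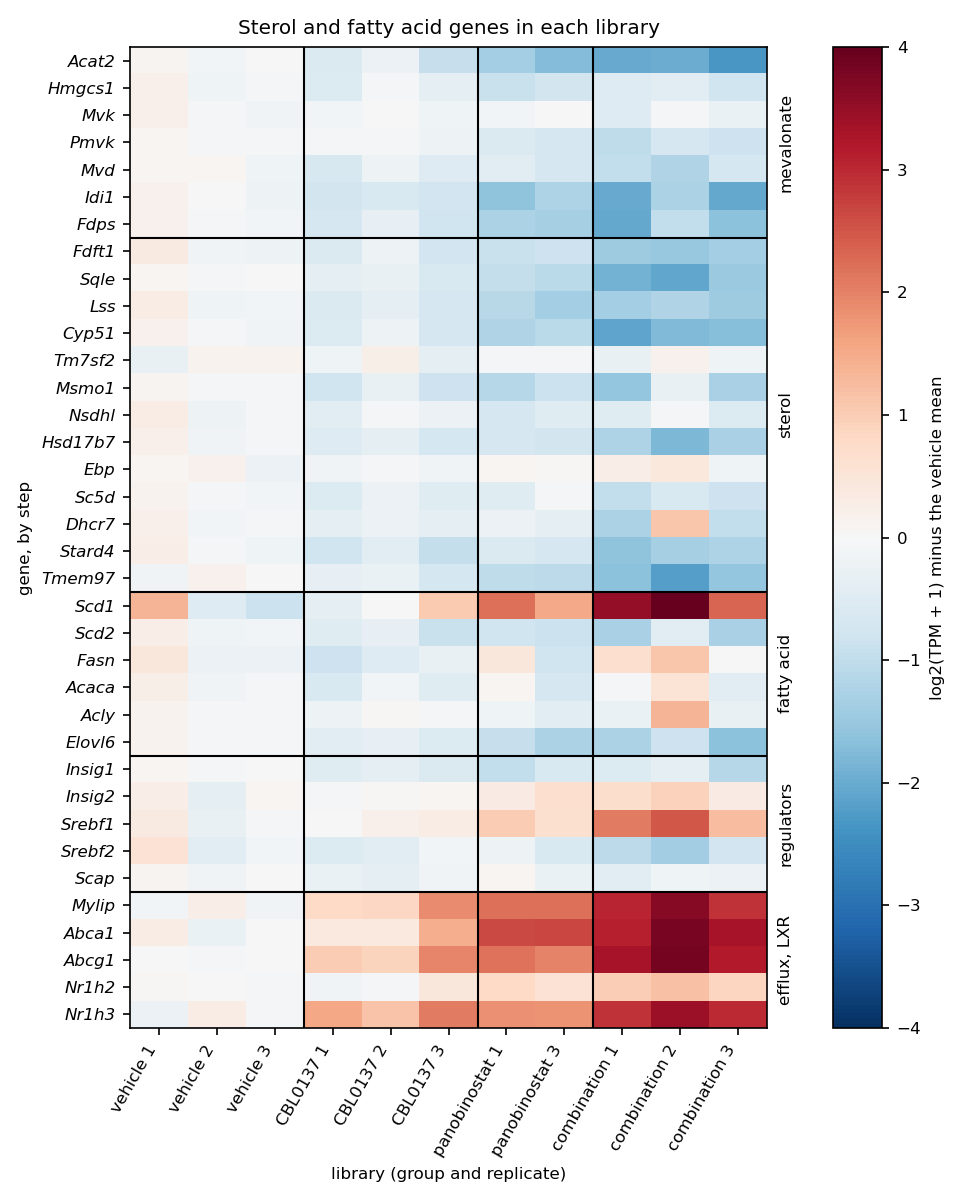
Log2(TPM + 1) of each of the 36 genes (rows, by step) minus the vehicle mean, in each of the 11 libraries (columns), with blue below and red above vehicle. The mevalonate and sterol rows are mostly blue in treated columns, the efflux rows are red, and combination replicate 2 differs from its group for Dhcr7 and Acly.

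Genes around these steps were taken from lists of their own. Of 9 genes of the isoprenoid branches, 3 fell and none rose after panobinostat, where 16.9% of all genes fell and 25.5% rose. After the combination 3 fell and 1 rose, where 30.1% of all genes fell and 35.9% rose. The falls there were near the share of all genes, and the rise was below it. Pdss1, which builds the tail of coenzyme Q, was at 27.4 to 30.1 TPM in vehicle and 7.71 to 13.3 after the combination (log2 change -1.45 ± 0.17, adjusted p 5.588e-05), and Ggps1, the geranylgeranyl diphosphate synthase, was at 43.9 to 45.2 and 28.4 to 30.3 TPM (-0.59 ± 0.08, adjusted p 0.0001425). Of 8 genes of SREBP and reductase processing, 3 fell and 1 rose after panobinostat (16.9% and 25.5% of all genes), and 4 fell and 3 rose after the combination (30.1% and 35.9%), the latter count near that of all genes. Mbtps2, the intramembrane protease that frees SREBP, changed by -0.59 (adjusted p 0.008219) and -0.89 (adjusted p 0.000173), and Erlin2, which holds SREBP and INSIG complexes, by 0.57 (adjusted p 0.0144) and 1.09 (adjusted p 7.511e-05).

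A list of 14 genes was mostly of sterol storage, uptake and lysosomal release, and also held Lbr, a sterol reductase. Of the 14, 4 rose and none fell after CBL0137 (4.99% and 1.13% of all genes). After panobinostat 7 rose and 1 fell (25.5% and 16.9%), and after the combination 10 rose and 2 fell (35.9% and 30.1%). Mean Lbr was 62.4 TPM in vehicle, 39.2 after panobinostat and 34.6 after the combination. Npc2, the lysosomal cholesterol carrier, was at 46.0 to 48.1 TPM in vehicle, 75.1 to 127 after CBL0137, 106 and 113 after panobinostat and 247 to 340 after the combination. Lipa, the acid lipase, went from 21.5 to 27.6 TPM in vehicle to 142 to 185 after the combination (2.71 ± 0.22, adjusted p 9.807e-06), and Soat1, which esterifies cholesterol, from 7.13 to 7.63 TPM to 50.4 to 87.8 (3.01 ± 0.27, adjusted p 1.446e-05). Ch25h, which makes an oxysterol that activates LXR and holds back SREBP, was at 1.02 to 1.47 TPM in vehicle, 3.56 to 8.66 after CBL0137 (1.53 ± 0.37, adjusted p 0.04021), 1.15 and 4.79 after panobinostat and 17.8 to 24.2 after the combination.

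Of 20 further fatty acid genes, 13 rose and 2 fell after panobinostat (25.5% and 16.9% of all genes), and 15 rose and 2 fell after the combination (35.9% and 30.1%). Acsl3, an acyl-CoA synthetase of lipid droplets, was among those that fell, from 42.4 to 48.1 TPM in vehicle to 10.2 to 13.3 after the combination (-1.80 ± 0.16, adjusted p 1.337e-05). Agpat2, an enzyme of triglyceride synthesis high in fat, rose from 7.99 to 13.8 TPM to 61.9 to 185 (3.22 ± 0.49, adjusted p 0.0002413). Of 8 other LXR targets 6 passed the filter on low values, and these 6 rose after panobinostat (25.5% of all genes) and after the combination (35.9%). None of the 6 passed after CBL0137 (4.99% of all genes rose), with log2 changes from 0.37 to 1.18 (median 0.59). Lpl, lipoprotein lipase, was at 19.3 to 31.0 TPM in vehicle and 242 to 460 after the combination (3.77 ± 0.36, adjusted p 1.863e-05), and Pltp, the phospholipid transfer protein, was at 14.2 to 15.1 and 158 to 213 TPM (3.50 ± 0.34, adjusted p 1.867e-05). The macrophage and fat cell marker sums given above were also higher after panobinostat and the combination, and their part was not tested.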

How the data were processed

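The authors deposited TPM for 24411 genes in 11 libraries, from STAR, SAMtools and RSEM with mm10, per the submitters' processing notes. Versions, annotation and the strand setting of the counting are not given in the sources used here, and 3 of the 36 genes share exon bases with a gene on the other strand (Cyp51 with Akap9, Fdft1 with Ctsb, Srebf1 with Rai1). Per the labels, groups came from the treatment, with separate mice as replicates. A gene entered the tests when 2 or more libraries held it at 1 TPM or above (15497 genes, with 8914 left out). Log2(TPM + 1) was fitted with limma 3.58.1 in R 4.3.3 as 4 group means over all libraries (eBayes with trend, 7 residual degrees of freedom, 2-sided, Benjamini-Hochberg over the genes tested, threshold 0.05). The fit was tested on simulated data. Fold changes on this scale understate those of low genes. Means carry SD in figures and log2 changes carry SE.

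The genes, their lists and the markers were chosen with earlier results of these data known. Values in every library were given for the 4 largest called rises and falls of each comparison against vehicle, all regulators and all efflux genes, and up to 4 called genes were named from each list around the pathway. Gene positions are from the mm10 GENCODE annotation. Each result was recomputed with quantile normalization or TMM factors, with a minimum of 5 TPM or none, with a pseudocount of 0.1 or 5, with a replicate block, from the compared groups alone, and without each library in turn. A lone remaining panobinostat library then borrows its spread from the rest. Python 3.11.15, numpy 2.4.6, pandas 2.3.3 and matplotlib 3.10.9 made tables and figures.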

Additional observations from a re-analysis of the deposited data

How the results depend on the processing

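Counts of called genes among the 36 after the combination against vehicle or against CBL0137 stayed within 1.5 times of the main value under the scaling, filter, pseudocount, block and group alternatives. No gene named above changed direction while called. After CBL0137 against vehicle, the 1 lower gene became 0 with a pseudocount of 5, with no filter, under quantile normalization and with a replicate block, 2 with TMM factors and 5 when only the groups compared were fitted, and the 2 higher genes became 1 with the replicate block. For the combination against panobinostat, the 5 lower genes became 2 with no filter, 8 under quantile normalization, 0 with the replicate block and 0 with only the groups compared, and the 2 higher genes became 4 under quantile normalization and 0 with the replicate block. For CBL0137 against panobinostat, the 5 higher genes became 9 with TMM factors, 1 with the replicate block and 0 with only the groups compared, and the 2 lower genes became 1 with no filter, 1 with the block and 0 with only the groups compared. The cause was not tested.

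Leaving out each library in turn gave 1 to 3 higher and 0 to 4 lower genes after CBL0137, 4 to 7 higher and 11 to 18 lower after panobinostat, 7 to 8 higher and 19 to 21 lower after the combination, 7 to 10 higher and 12 to 16 lower for the combination against CBL0137, 0 to 4 higher and 0 to 6 lower for the combination against panobinostat, and 0 to 9 higher and 0 to 4 lower for CBL0137 against panobinostat. Called genes kept in every such fit were 26 of 27 after the combination, 15 of 23 after panobinostat and 1 of 3 after CBL0137. The lowest panobinostat count, 11, came without panobinostat replicate 1, and 12 came without vehicle replicate 1 or panobinostat replicate 3. Correlations of deviations in 15 same-numbered pairs ran from -0.26 to 0.19, 2 were over 0.1 and 1 library was closest to its own number. Deviations from a mean of 2 or 3 libraries are tied to each other, so whether replicate numbers pair the libraries cannot be decided this way. TPM keep no depth, so no limit of detection can be given.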
